A study of Mus musculus with 160 samples.

Results

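Gata3-GFP+ and Gata3-GFP- mesenchymal cells (MC) from the mouse aorta-gonads-mesonephros region (AGM) at E11.5 are compared here across all genes. The unit was a pool of 20 sorted cells. Pools carrying these labels were used when they held over 500000 counts on genes plus ERCC RNAs (spike-in transcripts added to each lysate) and when their Ngfr count did not exceed their Pdgfrb count. This took 31 of the 160 pools of the series, 17 of the 20 labelled Gata3-GFP+ MC and 14 of the 20 labelled Gata3-GFP- MC.

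The study asked how Gata3 acts in and around the cells from which blood stem cells arise in the embryo. It sequenced 8 sorted populations by Smart-seq2, in which whole transcripts of few cells are copied into cDNA. The others were the GFP+ and GFP- fractions of endothelial cells (EC) and blood cells (HC) at E10.5 and of sympathetic nervous system (SNS) cells at E11.5. All populations came from pooled, untreated embryos of the genotype Gata3-GFP +/-, so that both MC groups share one genotype and differ in the GFP signal at the sort.

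In this line GFP is expressed from the Gata3 locus, so one copy of the gene carries the reporter in both groups. The sort took Pdgfrb+ cells after collagenase treatment of the dissected tissue. By the labels cells went straight into lysis buffer, while the paper describes a first sort into tubes for EC and HC. Strain and sex of the embryos are not in the labels.

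GATA3 is a zinc-finger transcription factor that binds GATA motifs and is known for its roles in sympathetic neurons, the nephric duct and T cells. The AGM holds the dorsal aorta, from whose wall blood stem cells emerge, and the mesenchyme around it contains mural cells (smooth muscle cells and pericytes, which wrap vessels) beside fibroblast-like cells of other origins. This mesenchyme is a known source of signals such as BMP4, KIT ligand and CXCL12, and it borders on the sclerotome, the nephric duct, the gonad primordium and the sympathetic ganglia.

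Labels and profiles did not match in 6 libraries labelled MC, and these were left out by the rule. In the 3 labelled Gata3-GFP+ MC, Pdgfrb lay between 1.12 and 12.7 CPM (counts of a gene per 1000000 counts on genes), and Col1a1 (a fibrous collagen) between 4.37 and 35.6 CPM. Sox10, a factor of neural crest and Schwann cell precursors, lay between 353 and 570 CPM in them. In the 3 left-out libraries labelled Gata3-GFP- MC, Pdgfrb lay between 0.996 and 1.98 CPM and Sox10 between 94.4 and 331. The 31 pools used had the opposite profile, with Sox10 at 7.32 CPM or less and Col1a1 at 590 CPM or more. Conversely, 3 libraries labelled Gata3-GFP+ SNS held 112.9 to 135.4 CPM of Pdgfrb and 52.6 to 80.004 CPM of Tbx1, and 3 labelled Gata3-GFP- SNS held 748 to 1483 CPM of Rgs5. No library was moved to another group, and the calls in the gene lists are given with and without the left-out libraries where these change them.

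**Figure D1:**
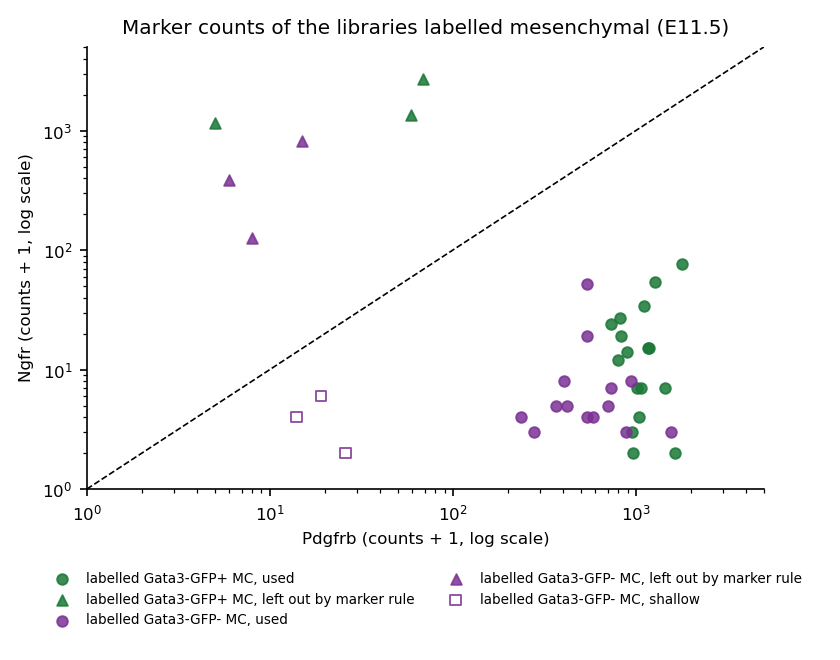
Counts of Ngfr (y axis) and Pdgfrb (x axis), both plus 1 and on log scales, in the 40 libraries labelled mesenchymal at E11.5, with the dashed line at equal values. The 31 pools used lie far below the line, 6 libraries left out by the marker rule lie above it, and 3 shallow Gata3-GFP- libraries are at the lower left.

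The rule's threshold fell in a wide gap. The pool used with the highest ratio of Ngfr to Pdgfrb had 51 counts of Ngfr and 537 of Pdgfrb (0.0950), and the left-out library with the lowest ratio had 7 counts of Pdgfrb and 18 times as many of Ngfr. By depth, the shallowest pool used had 2075101 counts on genes plus ERCC RNAs, and the deepest of the 3 shallow Gata3-GFP- MC libraries had 163695. The members were chosen by depth and by these 2 counts. Pdgfrb was at 182, 251 and 291 CPM (lowest, median and highest) in GFP+ MC and at 113.9, 178 and 240 CPM in GFP- MC. Ngfr was at 0.112, 3.10 and 11.51 CPM in GFP+ MC and at 0.272, 1.36 and 17.8 CPM in GFP- MC. No test is drawn from these values.

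The table gives counts for 46078 genes and 92 ERCC RNAs. GFP+ MC pools held 2646033, 4111119 and 8942715 counts on genes, again as lowest, median and highest. GFP- MC pools held 2054295, 3044422 and 7361546, so the ranges overlapped and the median was lower. Genes took a median of 49.5% of the reads in GFP+ MC and 48.8% in GFP- MC, while reads ambiguous between genes took 17.4% and 16.4%. Reads not aligned took 19.7% ± 1.15 (mean ± SD) in GFP+ MC and 22.5% ± 1.86 in GFP- MC, and reads on no gene 12.4% ± 0.671 and 11.4% ± 0.938. The part of these shares in the differences between the groups was not tested. No pair of E11.5 libraries was identical. The counts are PCR reads without molecular identifiers, so intervals given here cover counting error only. Every p-value here measures the spread between pools, because the labels do not tie a pool to an embryo or a replicate. The paper states that EC and HC pools were sorted from a few biological replicates and does not say how many lie behind the MC pools. Pools that share a replicate are not independent, and p-values over pools may then be too small.

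Per pool, the RNA content relative to the spike-in was slightly higher in GFP+ MC. How scaling by the spike-in changed the calls is given with the counts of genes below. Counts on genes over counts on ERCC RNAs, as a log2 ratio, were 6.80 ± 0.193 (mean ± SD, n = 17) in GFP+ MC and 6.63 ± 0.202 (n = 14) in GFP- MC. This is a difference of 0.17 (two-sided permutation p = 0.0215), with 14 of 17 GFP+ pools above the GFP- median. With the left-out libraries included the difference was 0.04. Mitochondrial genes took 6.23% ± 0.585 of counts in GFP+ MC and 6.28% ± 0.839 in GFP- MC (permutation p = 0.866), which did not separate the groups. GFP+ MC pools had 13083 ± 591 genes with at least 10 counts and GFP- MC pools 12364 ± 897, a difference of 720 (permutation p = 0.0135). With every pool thinned to 2054295 counts, an alternative chosen after seeing the data, the difference was 120 genes (permutation p = 0.00912).

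The groups were apart along the main axis of variation. On principal component 1, which held 13.8% of the variance of log2 CPM + 1, GFP+ MC pools lay between 12.7 and 43.6 and GFP- MC pools between -50.8 and -20.7. On component 2 (4.56%) the groups overlapped, and 1 GFP- MC pool stood apart at 94.3, with the next GFP- pool at 9.42. That pool was kept, since no rule fixed beforehand removes it.

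Across the genome, 15226 genes reached 10 counts in 5 or more of the 31 pools and were tested with edgeR's quasi-likelihood (QL) test. A gene is called higher or lower where the Benjamini-Hochberg adjusted p was under 0.01 and the log2 fold change of GFP+ over GFP- MC was beyond 0.1. Of the genes tested, 840 were higher (5.52%) and 746 were lower (4.90%), together 10.4%. Counts of calls in the gene lists below are to be read against these shares. The share of all genes tested without overlap between the groups is not given, so non-overlap of a named gene lacks this background. The median log2 fold change of all genes tested was 0.01. Including the left-out libraries, 354 were higher and 344 lower. Scaling by the ERCC RNAs moved the median of all genes by 0.14 to 0.16 and gave 1027 genes higher and 228 lower, so that the share of higher genes among the calls was 81.8% in place of 52.96%. In one fit of the 4 E11.5 populations, 846 genes were higher and 1043 lower, a share of 44.8%. The gene lists described next kept the sign of their median under DESeq2, scran and ERCC size factors. In bulk pools, fewer cells of a type and less RNA per cell cannot be told apart.

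**Figure D2:**
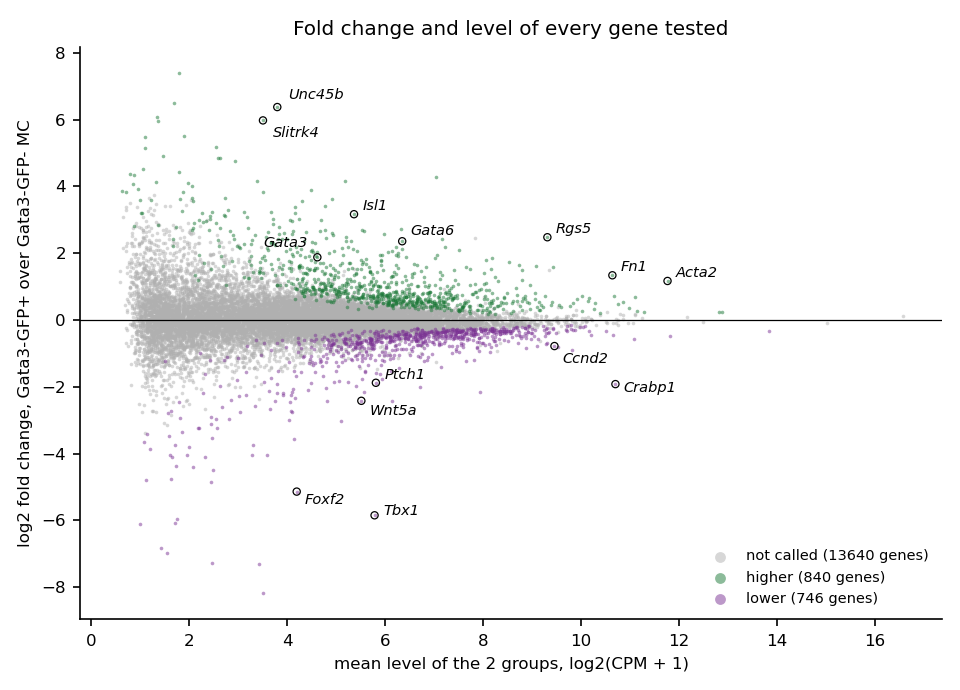
Log2 fold change of GFP+ over GFP- MC (y axis) against mean level as log2 CPM + 1 (x axis) for the 15226 genes tested, with 840 called higher in green and 746 called lower in purple. Rgs5, Fn1 and Acta2 are among the abundant genes that were higher and Crabp1 and Ccnd2 among those that were lower, and fitted values of genes with 3 or fewer counts in a group are no bounds.

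Gata3 itself checks the sort and is no finding. Gata3 (ENSMUSG00000015619, chromosome 2, 9857078 to 9890034, minus strand, GRCm38) was at 19.6, 35.6 and 71.5 CPM in GFP+ MC and at 2.90, 9.09 and 19.4 CPM in GFP- MC. Each GFP+ pool was above each GFP- pool, and GFP- pools were not at 0. The log2 fold change was 1.88 ± 0.22 (SE; adjusted p = 9.00e-08). With the left-out libraries it was -0.66, and the 3 of them labelled Gata3-GFP- MC held 128.7, 369 and 413 CPM of Gata3.

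Some other GATA genes were higher along with Gata3. Of the 7 GATA factors and Fog cofactors other than Gata3, 6 were tested and 3 were higher, with a median log2 fold change of 1.89. Including the left-out libraries, 2 were higher. Gata6, a factor of smooth muscle, heart and gut mesoderm, was at 69.7, 139.4 and 181 CPM in GFP+ MC and at 10.8, 30.1 and 39.3 CPM in GFP- MC. Its groups did not overlap, and the log2 fold change was 2.36 ± 0.18 (adjusted p = 1.01e-11). Gata5, a related cardiac and smooth muscle factor, was at 3.999, 20.2 and 58.2 CPM against 0, 2.37 and 14.5 CPM, with 16 of 17 GFP+ pools above every GFP- pool. Its log2 fold change was 2.62 ± 0.45. Zfpm1, which encodes the cofactor FOG1, was at a median of 7.04 against 0.589 CPM. It was called higher (2.94 ± 0.53), but no GFP- pool reached 10 counts, so the size of its fold rests on few counts. Zfpm2, the gene of FOG2, was at a median of 13.2 against 5.47 CPM and missed the threshold (log2 fold change 1.42, adjusted p = 0.0200). Gata2, a factor of blood and sympathetic cells, was at a median of 0.756 against 9.94 CPM, with an adjusted p of 0.322. Gata1, the red cell factor, was not tested, with 0 counts in every GFP+ pool.

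Promoters of called genes were searched for GATA words, because GATA factors bind such sequences. RefSeq windows on GRCm38.p6, from 250 bases before to 50 after a gene's start, were read on both strands for GATA with A or T before it and A or G after it. A word was found in 17.995% of the windows of genes called higher (619 of 840 genes matched), in 19.6% for genes called lower (523 of 746) and in 18.4% for all genes tested (10019 of 15226). All windows of the table held one in 29.8%. The windows of Gata3 (chr2:9878551-9878850, minus strand), of Rgs5 (chr1:169655251-169655550, plus strand), which had the smallest p of all genes, and of Wnt2 (chr6:18030396-18030695, minus strand), among the largest falls, are shown 5′ to 3′ with the words in capitals. In Pax1, Tbx1, Foxf2, Saa1, Ptgfr, Gsc, Kctd12 and Itgbl1, also among the largest falls, the windows held no word. Of the largest rises, Unc45b, Scn7a, Slc5a7, Syt1, Kcnip4 and Cntn4 had a word in at least 1 window, and Grhl3 and Cdh9 had none. Syt1, Kcnip4 and Cntn4 have more than 1 window each, so genes with a word cannot be set against the shares of windows. Over all called genes these shares were close to that of all genes tested. No window was matched for Slitrk4, Klhl30, Pi15, Fam19a1, Aldh1a3 or Alx4. Windows of Gata5, Efhd2, Asb4, Fbn1, Crabp1, Ptma and Set held no word either. A match describes letters only.
Gata3: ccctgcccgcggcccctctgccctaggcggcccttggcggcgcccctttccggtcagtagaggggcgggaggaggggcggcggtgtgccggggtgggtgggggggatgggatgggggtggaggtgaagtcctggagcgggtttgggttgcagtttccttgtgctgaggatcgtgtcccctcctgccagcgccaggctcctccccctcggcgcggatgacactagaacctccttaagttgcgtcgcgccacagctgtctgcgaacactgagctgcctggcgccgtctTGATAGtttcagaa
Rgs5: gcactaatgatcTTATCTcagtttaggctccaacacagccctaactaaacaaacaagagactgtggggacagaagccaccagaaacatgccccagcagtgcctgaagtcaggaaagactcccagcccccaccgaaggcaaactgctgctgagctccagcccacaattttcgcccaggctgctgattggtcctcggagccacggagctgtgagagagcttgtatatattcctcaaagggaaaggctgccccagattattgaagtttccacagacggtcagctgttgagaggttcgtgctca
Wnt2: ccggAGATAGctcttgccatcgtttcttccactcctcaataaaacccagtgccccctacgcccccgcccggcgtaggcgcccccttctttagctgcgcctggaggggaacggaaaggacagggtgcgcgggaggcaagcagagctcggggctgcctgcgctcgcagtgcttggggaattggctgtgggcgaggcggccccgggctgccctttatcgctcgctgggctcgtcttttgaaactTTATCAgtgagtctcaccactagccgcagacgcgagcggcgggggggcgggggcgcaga

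Genes of mural and smooth muscle cells were mostly called higher. Of 14 tested, 10 were higher and 4 did not pass the threshold, and the median log2 fold change was 1.20. Rgs5 (ENSMUSG00000026678, chromosome 1, 169655501 to 169695813), a regulator of G-protein signalling and a marker of pericytes, was at 697, 1120 and 1342 CPM in GFP+ MC and at 109.02, 172 and 405 CPM in GFP- MC. The ranges were apart, and the log2 fold change was 2.48 ± 0.14 (adjusted p = 1.56e-14). Acta2 (chromosome 19, 34241090 to 34255590), the smooth muscle actin, was at 3030, 4472 and 8478 CPM in GFP+ MC and at 608, 2297 and 3560 CPM in GFP- MC. Here the ranges overlapped, with 14 of 17 GFP+ pools above every GFP- pool, and the log2 fold change was 1.17 ± 0.22 (adjusted p = 0.000156).

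Myocd encodes myocardin, the coactivator that turns on smooth muscle genes. It was at 66.9, 109.03 and 249 CPM in GFP+ MC and at 2.76, 23.7 and 65.1 CPM in GFP- MC, without overlap, and was higher by 2.07 ± 0.30 (adjusted p = 3.40e-06). Myh11, the smooth muscle myosin heavy chain, was at 26.5, 73.7 and 200 CPM against 0, 13.9 and 26.5 CPM, and was higher by 2.68 ± 0.40. The pericyte surface proteins NG2 (Cspg4) and CD146 (Mcam) were higher by 1.66 ± 0.16 and 1.53 ± 0.16, both without overlap between the groups. Not every gene of the list moved with them. Tagln, an actin-binding protein of smooth muscle, was at a median of 785 against 627 CPM (adjusted p = 0.0861), and another annotated gene covers 62.4% of its exon bases. The strand setting of the authors' counting is not given, so how reads on such shared bases were counted is unknown. Des, the intermediate filament of muscle, was at a median of 24.2 against 29.6 CPM (adjusted p = 0.561). The summed level of the list was 6109, 7683 and 12388 CPM in GFP+ MC and 1485, 3654 and 5241 CPM in GFP- MC. Including the left-out libraries, 4 of 14 were higher and the median was 1.24.

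**Figure D3:**
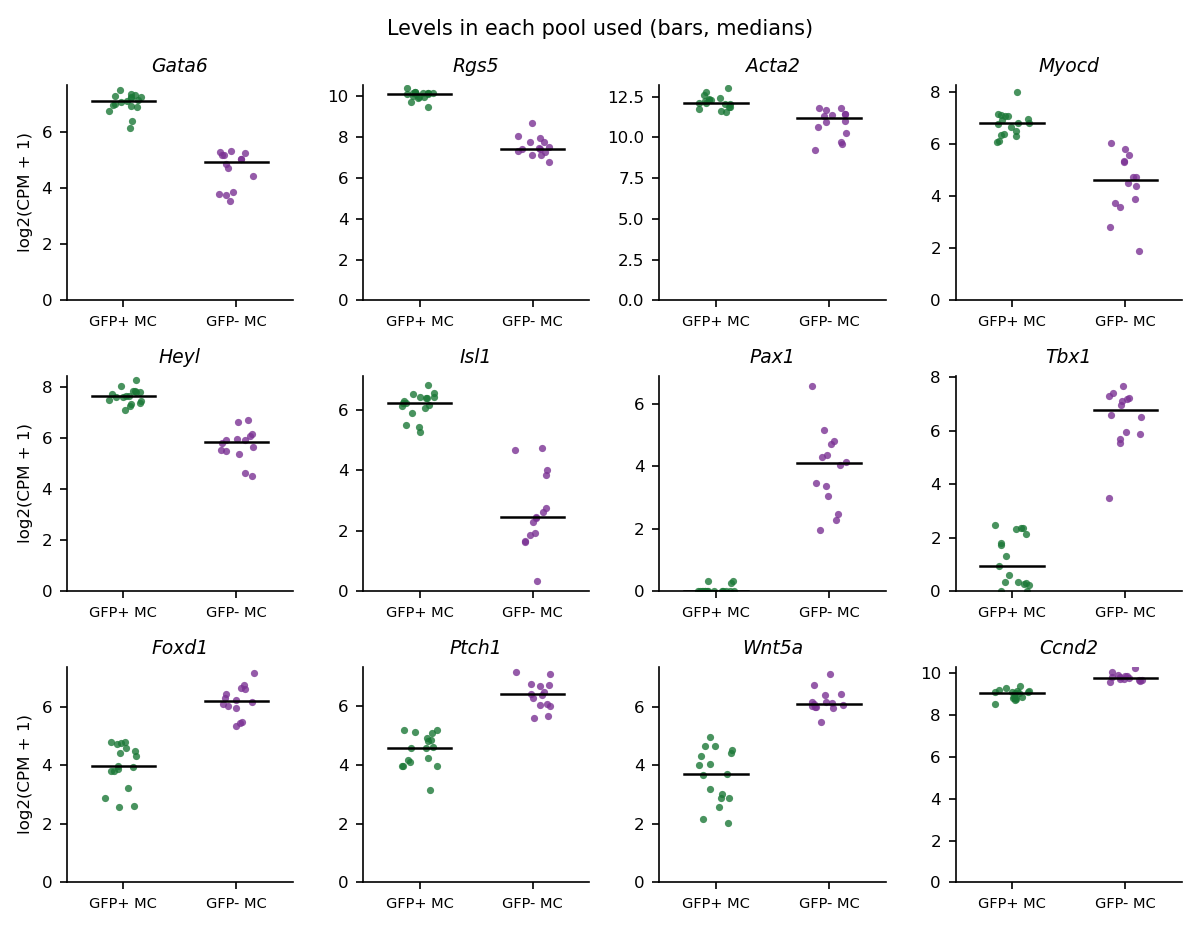
Level of 12 genes in each pool used, as log2 CPM + 1 (y axis, from 0), for 17 GFP+ and 14 GFP- MC pools, with bars at the medians. Gata6, Rgs5, Myocd, Heyl and Isl1 do not overlap with GFP+ above GFP-, and Acta2 overlaps. Pax1, Tbx1, Foxd1, Ptch1, Wnt5a and Ccnd2 do not overlap with GFP+ below GFP-. The 12 genes were picked for display, and the share of all genes tested without overlap is not given.

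Notch signalling, which vessels use to recruit mural cells and which acts through receptors cut at the membrane on contact with Jagged or Delta ligands, showed calls on the higher side at each level of the pathway. Of 12 genes tested, 7 were higher and 5 did not pass the threshold, with a median of 0.91. Among ligands, Jag1 was at 221, 412 and 614 CPM in GFP+ MC and at 67.1, 157.9 and 227 CPM in GFP- MC, and was higher by 1.53 ± 0.16 (adjusted p = 9.22e-09, 16 of 17 GFP+ pools above every GFP- pool). Among receptors, Notch2 was higher by 0.91 ± 0.08, Notch1 by 0.91 ± 0.19 and Notch3, the receptor of mural cells, by 0.70 ± 0.11. Among targets, Heyl, a transcriptional repressor induced by Notch, was at 137.2, 197 and 305 CPM against 22.1, 56.8 and 102.2 CPM, without overlap, and was higher by 1.85 ± 0.16 (adjusted p = 4.27e-10). Hey2, of the same family, was higher by 1.81 ± 0.19. The feedback regulator Nrarp was higher by 2.43 ± 0.62 at low counts, and another annotated gene covers 79.4% of its exon bases. Of the 12, 5 were higher with the left-out libraries.

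Extracellular matrix genes were called higher more often than lower. Among the fibrous matrix genes, 11 of 27 were higher, 1 was lower and the median was 0.56. Fn1, which encodes fibronectin, was at 1754, 2259 and 2878 CPM in GFP+ MC and at 561, 873 and 1324 CPM in GFP- MC. The groups were apart, with a log2 fold change of 1.34 ± 0.09 (adjusted p = 2.27e-13). Postn (periostin) was higher by 1.65 ± 0.17, the proteoglycan gene Vcan (versican) by 1.20 ± 0.11, and the collagen genes Col1a1 and Col3a1 by 0.71 ± 0.08 and 0.67 ± 0.08. The fibrillins went opposite ways. Fbn1 was higher by 1.41 ± 0.10, with 20.1% of its exon bases shared with another annotated gene, and Fbn2, which is known as the more embryonic fibrillin, was lower (log2 fold change -0.34 ± 0.07, adjusted p = 0.000838, 11 of 17 GFP+ pools below every GFP- pool). Fbn2 was not called with ERCC size factors, under which 12 of the 27 genes were higher. Including the left-out libraries, 4 of 27 were higher, 0 were lower and the median was 0.55. Fbn2 was then not called (log2 fold change -0.21, adjusted p = 0.592 by edgeR's QL test).

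Basement membranes, the sheets that underlie vessels and wrap mural cells, were represented by 16 genes. Of these, 9 were higher and 7 did not pass the threshold, with a median of 0.80. Col4a1, a chain of the main basement membrane collagen, was at 301, 416 and 596 CPM in GFP+ MC and at 94.2, 179 and 262 CPM in GFP- MC, without overlap, and was higher by 1.29 ± 0.12 (adjusted p = 1.36e-09). Its partner chain Col4a2 was higher by 1.12 ± 0.11. Of the laminin chains, Lama2 was higher by 1.38 ± 0.16 and Lama5 by 2.24 ± 0.48, and so were the linkers Nid1 (0.84 ± 0.12) and Hspg2, the gene of perlecan (1.06 ± 0.17). Of the 16, 7 were higher with the left-out libraries.

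PDGF signalling recruits mural cells to vessels through PDGFRB. Pdgfrb itself is a gene of the sort and of the rule for pools, and is left aside. Of the other 5 ligand and receptor genes, all tested, 1 was higher, also with the left-out libraries. The ligand gene Pdgfa was at a median of 36.2 against 12.4 CPM and higher by 1.40 ± 0.33 (adjusted p = 0.00212, 7 of 17 GFP+ pools above every GFP- pool), with 26.1% of its exon bases shared with another annotated gene. Pdgfra, the receptor of fibroblast-like mesenchyme, was at 68.7, 137.6 and 183 CPM in GFP+ MC and at 89.5, 124.6 and 184 CPM in GFP- MC, overlapping almost fully (adjusted p = 0.495).

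Transcription factors of mesenchyme split, with more on the lower side. Of 44 listed, 37 were tested, 7 were higher and 11 lower, with a median of -0.38. Tbx1 (ENSMUSG00000009097, chromosome 16, 18580979 to 18590671), a T-box factor of pharyngeal and axial mesoderm, was at 0, 0.922 and 4.62 CPM in GFP+ MC and at 10.2, 109.3 and 204 CPM in GFP- MC. The ranges were far apart, with a log2 fold change of -5.85 ± 0.43 (adjusted p = 5.75e-12). Foxf1, a target of hedgehog signalling in mesenchyme, was at 2 counts over all GFP+ pools and 568 over the GFP- pools, a ratio of 433 (95% interval 119.3 to 3582). Foxf2, its close relative, was at a median of 0 against 26.8 CPM and lower by a log2 fold change of -5.14 ± 0.71, with 16 of 17 GFP+ pools below every GFP- pool.

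Foxd1, a factor of stromal mesenchyme in kidney and body wall, was at 5.003, 14.7 and 26.8 CPM in GFP+ MC and at 39.4, 72.5 and 140.2 CPM in GFP- MC, without overlap. Its log2 fold change was -2.16 ± 0.23 (adjusted p = 1.13e-08). The homeodomain genes Alx1 and Alx4, known from skull and limb mesenchyme, were lower (-2.73 ± 0.52 and -3.24 ± 0.69), as was Twist2 (-1.54 ± 0.19), with 46.5% of its exon bases shared with another annotated gene. The genes on the higher side moved less. Foxp2 was higher by 0.65 ± 0.07, Zeb2 by 0.66 ± 0.10, Nr2f1 by 0.58 ± 0.12 and Foxc2 by 0.43 ± 0.10. Summed over the list, levels were close, at a median of 3914 CPM in GFP+ MC and 4054 CPM in GFP- MC. With ERCC size factors 7 were higher and 7 lower, and with the left-out libraries 1 was higher and 6 lower.

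The sclerotome, the part of the somite that forms vertebrae and ribs under hedgehog signals from the notochord, expresses Pax1, Pax9 and Nkx3-2. Of the 11 sclerotome and cartilage genes tested, 5 were lower and 1 was higher, with a median of -1.13. Pax1 (ENSMUSG00000037034, chromosome 2, 147361925 to 147393295) was at 0, 0 and 0.257 CPM in GFP+ MC and at 2.89, 16.03 and 94.2 CPM in GFP- MC. It had 3 counts over all GFP+ pools and 1447 over the GFP- pools, a ratio of 735 (95% interval 251 to 3569). All 14 GFP- pools held it and no GFP+ pool reached their range.

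Nkx3-2 was lower by a log2 fold change of -5.96 ± 0.66 and Pax9 by one of -2.76 ± 0.54. No GFP+ pool reached 10 counts of Nkx3-2, so the size of its fold rests on few counts. Sox9, which drives cartilage, was at 11.7, 42.9 and 87.2 CPM against 40.4, 74.02 and 245 CPM, overlapping, with a log2 fold change of -1.13 ± 0.26 (adjusted p = 0.00187). Its target Col2a1, the cartilage collagen, was lower as well (-1.63 ± 0.37). The summed level of the list was nearly equal, at a median of 434 and 431 CPM, with Col9a1 the most abundant gene in both groups. Including the left-out libraries, 3 genes were lower and 1 higher.

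Hedgehog ligands were not measurable in either group, since Shh, Ihh and Dhh stayed under 10 counts in every pool and were not tested. Of 10 pathway genes tested, 3 were lower and 7 did not pass the threshold, and the median was -0.45. Ptch1, the receptor gene that hedgehog signalling itself induces, was at 7.91, 23.2 and 35.4 CPM in GFP+ MC and at 47.3, 84.3 and 142.3 CPM in GFP- MC. Its groups were apart, with a log2 fold change of -1.88 ± 0.18 (adjusted p = 2.20e-09). Hhip, another induced gene, whose product binds the ligand, was at a median of 0 against 5.69 CPM (-4.10 ± 0.74). Gas1, a co-receptor gene, was lower (-0.68 ± 0.16), with 19.9% of its exon bases shared with another annotated gene, and was not called with ERCC size factors. Gli1, also a target, was at a median of 4.80 against 13.04 CPM and missed the threshold (adjusted p = 0.0403), and the effectors Gli2 and Gli3 were at 49.6 against 44.7 and at 80.9 against 89.3 CPM. Only 1 of the 10 was lower with the left-out libraries.

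**Figure D4:**
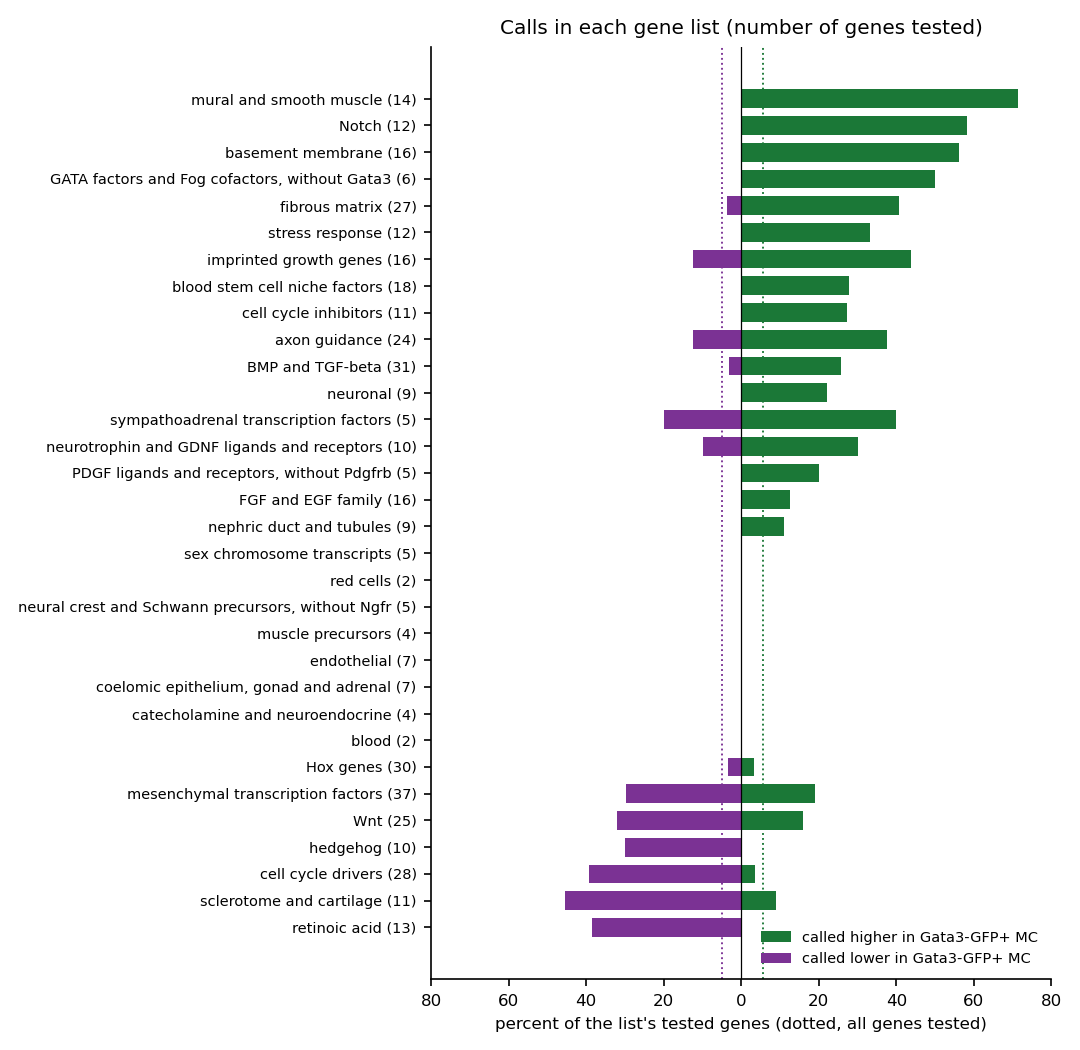
Percent of each gene list's tested genes called higher (right, green) or lower (left, purple) in GFP+ MC, with the number of genes tested in brackets and dotted lines at the 5.52% and 4.90% of all genes tested. Mural, Notch, GATA and basement membrane genes are at the top, and retinoic acid, sclerotome and cell cycle driver genes at the bottom.

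Wnt genes were called in both directions. Of 25 tested, 4 were higher and 8 lower, with a median of -0.40. Among ligands, Wnt5a, which signals mainly without beta-catenin, was at 3.11, 12.1 and 30.5 CPM in GFP+ MC and at 43.4, 68.3 and 139.1 CPM in GFP- MC. No GFP+ pool reached the GFP- range, and the log2 fold change was -2.42 ± 0.25 (adjusted p = 8.48e-09). Wnt2 was lower by a log2 fold change of -4.04 ± 0.82, with 14 of 17 GFP+ pools below every GFP- pool. The R-spondins Rspo2 and Rspo3, which amplify Wnt signals, were lower (-2.98 ± 0.70 and -1.21 ± 0.25). Of targets of the beta-catenin branch, Axin2 (-2.47 ± 0.55) and Lef1 (-1.56 ± 0.29) were lower. The secreted inhibitors were called in both directions. Frzb was at 58.5, 97.2 and 168.95 CPM against 6.59, 18.7 and 33.4 CPM, without overlap, and was higher by 2.57 ± 0.20 (adjusted p = 1.29e-11). Sfrp2 was higher by 1.73 ± 0.21, while the inhibitor Dkk2 was lower (-1.84 ± 0.34). Exon bases shared with another annotated gene make up 16.1% in Sfrp2, 13.7% in Lef1 and 13.1% in Rspo3. The co-receptors differed in direction, with Ror1 higher by 1.48 ± 0.16 and Ror2 lower (-1.30 ± 0.26). The left-out libraries, when included, changed this to 2 higher and 2 lower.

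Among retinoic acid genes, calls were in the lower direction. Of 13 tested, 5 were lower and 8 did not pass the threshold, with a median of -0.75. Crabp1, which encodes a protein that binds retinoic acid in the cytoplasm, was at 326, 582 and 1522 CPM in GFP+ MC and at 1745, 2736 and 3442 CPM in GFP- MC. Its groups did not overlap, and the log2 fold change was -1.92 ± 0.16 (adjusted p = 7.89e-11). Crabp2 (-0.78 ± 0.16) and the receptor gene Rarb (-1.38 ± 0.31), itself induced by retinoic acid, were lower. Rarb shares 34.1% of its exon bases with another annotated gene. Of the enzymes that make retinoic acid, Aldh1a3 was lower (-3.56 ± 0.64). Aldh1a2, the main such enzyme of trunk mesoderm, spread so widely that the groups were not told apart, at 0.227, 10.96 and 415 CPM in GFP+ MC and 33.9, 158.7 and 468 CPM in GFP- MC (adjusted p = 0.234). With ERCC size factors 4 genes were lower, and with the left-out libraries 2 were lower.

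BMP and TGF-beta genes were more often higher. Of 31 tested, 8 were higher and 1 was lower, with a median of 0.36. Bmp4, a ligand known to act on the aortic wall, was at 182, 299 and 441 CPM in GFP+ MC and at 120.1, 146.98 and 310 CPM in GFP- MC. The groups overlapped, with 6 of 17 GFP+ pools above every GFP- pool, and the log2 fold change was 0.84 ± 0.13 (adjusted p = 8.85e-06). Among genes that BMP signals induce, Id1 (0.79 ± 0.12), Id3 (0.47 ± 0.06), Id4 (1.55 ± 0.28) and the inhibitory Smads Smad6 (1.35 ± 0.25) and Smad7 (1.18 ± 0.16) were higher. Bmp7 was lower, at a median of 0.282 against 7.81 CPM (-2.61 ± 0.70). With ERCC size factors 9 were higher and Bmp7 was the gene that lost its call. With the left-out libraries 4 were higher and 0 lower, so that Bmp7 lost its call there too.

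Factors known to act on blood stem cells in their niches were compared next. Of 18 tested, 5 were higher and 13 did not pass the threshold, with a median of 0.24. Cxcl12, the chemokine that retains blood stem cells, was at 1499, 1974 and 2699 CPM in GFP+ MC and at 831, 1212 and 1611 CPM in GFP- MC. Of the GFP+ pools, 15 of 17 lay above every GFP- pool, and the log2 fold change was 0.73 ± 0.08 (adjusted p = 8.54e-08). Il7, a cytokine of lymphoid progenitors, had 288 counts over the GFP+ pools and 1 over the GFP- pools, a ratio of 189 (95% interval 33.6 to 7490). Thbs1, which encodes thrombospondin, was higher by 0.98 ± 0.20, and Jag1 and Bmp4 belong to this list too. Kitl, the gene of KIT ligand, was at 1.23, 13.3 and 42.1 CPM in GFP+ MC and at 0, 20.8 and 58.3 CPM in GFP- MC, so it overlapped (adjusted p = 0.505). Igf2, the most abundant gene of the list in both groups, was at a median of 2475 against 2266 CPM (adjusted p = 0.620), and another annotated gene covers 62.8% of its exon bases. With the left-out libraries, 2 were higher.

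A list of FGF and EGF family genes and other growth factor genes had 16 genes tested. Of these, 2 were higher and 14 did not pass the threshold, with a median of -0.15. Of all genes tested, 5.52% were higher and 4.90% lower. Nrg1, the neuregulin ligand of ERBB receptors on neural crest cells, was at 13.9, 26.1 and 56.4 CPM against 0, 4.09 and 13.5 CPM, without overlap, and was higher by 2.57 ± 0.39 (adjusted p = 8.15e-06). Gdnf, a ligand of RET that guides kidney and enteric development, was at a median of 16.1 against 0 CPM and higher by 2.48 ± 0.68 (adjusted p = 0.00920), with 9 of 17 GFP+ pools above every GFP- pool. Without a filter on genes Gdnf was not called, and 1 gene of the list was higher when the left-out libraries are included.

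Genes of neurotrophin and GDNF signalling, which support neurons and their precursors, gave 3 higher and 1 lower of 10 tested, with a median of 0.30. Beside Gdnf, the receptor genes Ntrk2 (0.66 ± 0.14) and Ntrk3 (2.16 ± 0.27) were higher, and Gfra1, a co-receptor for GDNF, was lower (-2.96 ± 0.68). The left-out libraries reduced this to 1 higher and 0 lower. Axon guidance genes, which also steer vessels and crest cells, gave 9 higher and 3 lower of 24 tested, with a median of 0.35. The netrin receptor gene Unc5b was at 84.6, 113.8 and 162.8 CPM in GFP+ MC and at 9.44, 29.2 and 46.7 CPM in GFP- MC. It did not overlap and was higher by 2.19 ± 0.18 (adjusted p = 4.79e-11). Unc5c was higher by 1.50 ± 0.14, the repellent Slit2 by 1.03 ± 0.13, with its relative Slit3 also called, and the ephrin receptor gene Epha7 by 1.18 ± 0.11. On the lower side were Epha4 (-1.85 ± 0.30), Sema3a (-2.35 ± 0.55), whose product repels sympathetic and crest cells, and the neuropilin gene Nrp2 (-1.23 ± 0.34). Nrp1, the gene of the neuropilin that binds SEMA3A, was higher by 0.69 ± 0.09. ERCC size factors gave 9 higher and 2 lower, without Nrp2, and DESeq2 size factors also gave 9 higher and 2 lower. The left-out libraries gave 6 higher and 1 lower.

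Some transcription factors of the sympathoadrenal lineage were detected in these mesenchymal pools, while others were too low to be tested. Isl1 (ENSMUSG00000042258, chromosome 13, 116298281 to 116309689), a LIM homeodomain factor of sensory and sympathetic neurons, heart and hindlimb mesoderm, was at 37.7, 72.8 and 110.5 CPM in GFP+ MC and at 0.276, 4.45 and 25.3 CPM in GFP- MC. The groups were apart, and the log2 fold change was 3.17 ± 0.36 (adjusted p = 5.70e-08). Hand2, a factor of sympathetic neurons, heart and limb, was higher by 1.78 ± 0.41, and was not called with the shallow pools included. Its exons share 19.6% of their bases with another annotated gene. Sox11 was lower (-0.70 ± 0.09, adjusted p = 4.04e-07, 11 of 17 GFP+ pools below every GFP- pool). These 3 are the calls among the 5 genes of this list that were tested. Phox2a, Insm1 and Tfap2b were not tested for their low counts. With the left-out libraries included, Isl1 and Hand2 changed direction (-0.67 and -0.68), and of 10 genes then tested none was higher and 2 were lower.

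Of 9 neuronal genes tested, 2 were higher (Syt1 and Ntrk3), with a median of 1.10. Syt1, a calcium sensor of vesicle release, was at 1.38, 40.3 and 77.8 CPM in GFP+ MC and at 0, 1.49 and 9.25 CPM in GFP- MC, and was higher by 3.89 ± 0.53 (adjusted p = 1.48e-06, 15 of 17 GFP+ pools above every GFP- pool). The list summed to a median of 198 CPM in GFP+ MC and 63.4 CPM in GFP- MC, against 1105 CPM in GFP+ and 377 CPM in GFP- SNS pools, whose range (87.6 to 857 CPM) overlapped that of GFP+ MC (118.6 to 350 CPM). Syt1 itself was at medians of 21.9 and 4.43 CPM in GFP+ and GFP- SNS pools, under its median in GFP+ MC. With the left-out libraries the direction turned, with 1 of 11 tested higher, 1 lower and a median of -2.09. Its defining genes Prph, Elavl3 and Dcx were too low to be tested. The part of neuronal RNA in the values of Isl1, Hand2 and Syt1 was not tested.

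Markers of the other cell types that the gate could hold were mostly low. By edgeR's QL test no gene was called among 4 muscle precursor, 7 coelomic, gonad and adrenal, 4 catecholamine, 5 neural crest (without Ngfr), 7 endothelial, 2 blood and 2 red cell genes tested. At an unadjusted p under 0.05, 1 muscle precursor, 2 catecholamine, 1 endothelial and 1 blood gene were higher and 1 coelomic gene was lower. DESeq2's Wald test called 1 muscle precursor and 1 blood gene higher and 1 coelomic gene lower, and scanpy's test called these counts and 1 endothelial gene higher. With ERCC size factors, edgeR's QL test called 1 blood gene higher. Among these lists, the left-out libraries changed the calls in the catecholamine list, where 4 of 8 genes then tested were lower. Endothelial genes summed to a median of 55.5 CPM in GFP+ MC and 57.05 CPM in GFP- MC, against 5759 and 8559 CPM in the GFP- and GFP+ EC pools, with Emcn the most abundant. Neural crest genes without Ngfr summed to 24.6 and 24.1 CPM, with Ednrb the most abundant, against 1436 and 1952 CPM in GFP+ and GFP- SNS pools.

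Blood genes summed to a median of 39.2 CPM in GFP+ MC and 12.1 CPM in GFP- MC. Most of this was Runx1, a factor of blood formation that mesenchyme also expresses, at 4.42, 34.7 and 64.7 CPM against 0.350, 7.40 and 46.7 CPM. Its ranges overlapped and it missed the threshold (log2 fold change 1.49, adjusted p = 0.0151). Ptprc, the defining blood marker CD45, was at or under 0.227 CPM in every pool of both groups. Red cell genes summed to 5.22 and 1.67 CPM, with Alas2 the most abundant. Catecholamine genes summed to 9.28, 29.1 and 97.7 CPM in GFP+ MC and to 10.3, 16.97 and 29.6 CPM in GFP- MC. Th, their rate-limiting enzyme, was at 0, 0.217 and 13.4 CPM in GFP+ MC and at 0, 0.355 and 5.94 CPM in GFP- MC. The coelomic, gonad and adrenal list summed to medians of 29.9 and 73.2 CPM, with Wt1, a factor of coelomic epithelium and kidney, at 14.3 against 60.03 CPM (adjusted p = 0.0137).

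Muscle precursor genes summed to 936 and 228 CPM, which was mostly the cardiac actin Actc1 at 271, 867 and 1900 CPM against 7.18, 146.9 and 1112 CPM. Actc1 overlapped between the groups and missed the threshold (log2 fold change 1.49, adjusted p = 0.0241). Myod1, Myog and Lbx1 had no count in any GFP+ pool and stayed under 10 counts in every GFP- pool. Of 9 nephric genes tested, Jag1 alone was higher, and it held most of the list's summed level of 444 and 184 CPM. Pax2, Pax8 and Lhx1, which define the nephric duct where Gata3 is known to act, stayed under 10 counts in every pool. The part of these cell types in the differences between GFP+ and GFP- MC was not tested.

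Genes that drive the cell cycle were called lower more often than higher. Of 28 tested, 11 were lower, 1 was higher and 16 did not pass the threshold, with a median of -0.69. Ccnd2, a D-type cyclin of early G1, was at 368, 527 and 658 CPM in GFP+ MC and at 753, 870 and 1191 CPM in GFP- MC, without overlap, and its log2 fold change was -0.78 ± 0.07 (adjusted p = 3.17e-10). Ccne1, the cyclin of S phase entry, was lower (-1.52 ± 0.20, 16 of 17 GFP+ pools below every GFP- pool). Of replication genes, Pcna (-0.74 ± 0.13) and Mcm5 (-0.73 ± 0.13) were lower, and of mitotic genes Ccnb2 (-1.41 ± 0.29) and Top2a (-0.93 ± 0.25). Mki67, the common proliferation marker, was at a median of 87.1 against 118.8 CPM and missed the threshold (adjusted p = 0.0924). Myc was the exception, higher by 1.03 ± 0.20. With ERCC size factors 6 were lower, without Top2a, and 1 was higher. With the left-out libraries 4 were lower and 0 higher, so that Myc lost its call.

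Inhibitors of the cell cycle moved the other way in 3 of 11 genes tested, the other 8 not passing the threshold, with a median of 0.73. Gadd45g, a growth arrest gene, was at 33.7, 79.8 and 183 CPM against 10.01, 27.8 and 45.8 CPM and higher by 1.78 ± 0.24 (adjusted p = 1.17e-06, 15 of 17 GFP+ pools above every GFP- pool). Btg1 was higher by 0.89 ± 0.12. Cdkn1c, the imprinted gene of p57, was at 671, 989 and 1527 CPM against 569, 716 and 1124 CPM, with wide overlap, and was higher by 0.42 ± 0.09 (adjusted p = 0.000851). It was not called with the shallow pools included, its log2 fold change was -0.25 with the left-out libraries, and another annotated gene covers 30.7% of its exon bases. Cdkn2a had no count in any pool used. Of this list, 1 gene was higher with the left-out libraries.

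Imprinted growth genes, many of which are high in embryos and silenced after birth, gave 7 higher and 2 lower of 16 tested, with a median of 0.40. Peg3 was at 1961, 2780 and 3374 CPM in GFP+ MC and at 1236, 1703 and 2192 CPM in GFP- MC. It was higher by 0.68 ± 0.07 (adjusted p = 3.02e-08, 15 of 17 GFP+ pools above every GFP- pool). Igf2r, the receptor that clears IGF2, was higher by 0.90 ± 0.10 without overlap, while Igf2 and H19 did not pass the threshold. Mest and Plagl1 were lower (-0.89 ± 0.11 and -1.21 ± 0.19), and Mest shares 23.1% of its exon bases with another annotated gene. When the left-out libraries are included, 3 were higher and 0 lower.

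Of 12 stress response genes, all tested, 4 were higher and 8 did not pass the threshold, with a median of 0.52. Hspb1, a small heat shock protein that smooth muscle also expresses, was at 76.02, 119.2 and 184 CPM against 6.91, 18.6 and 138.7 CPM, overlapping, and was higher by 1.96 ± 0.30 (adjusted p = 9.17e-06, 4 of 17 GFP+ pools above every GFP- pool). The paralogs Hspa1a and Hspa1b, between which reads cannot always be placed, were higher by 2.18 ± 0.35 and 1.79 ± 0.37. Hspa1a shares 19.01% of its exon bases with another annotated gene. Dusp1, an immediate early phosphatase gene known to respond to dissociation, was at a median of 136.8 against 114.9 CPM, overlapping, and was higher by 0.73 ± 0.20 (adjusted p = 0.00725). Fos, which dissociation is also known to induce, was at a median of 315 against 179 CPM (adjusted p = 0.213), and the part of handling in these values was not tested. Just 1 was higher with the left-out libraries. Of the 5 sex chromosome transcripts none was called by edgeR, DESeq2 or scanpy, and none was under an unadjusted p of 0.05. Xist was at 112.6, 242 and 415 CPM against 102.3, 189 and 356 CPM, overlapping.

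Hox genes mark position along the body axis, with higher numbers toward the tail. Of 30 tested, 1 was higher and 1 lower, against 5.52% and 4.90% of all genes tested, and the median was -0.29. Hoxb8 was at 5.10, 12.1 and 26.5 CPM against 1.76, 3.96 and 13.04 CPM and higher by 1.25 ± 0.29 (adjusted p = 0.00181, 4 of 17 GFP+ pools above every GFP- pool). Hoxa7 was lower (-0.94 ± 0.20, adjusted p = 0.000772, 8 of 17 GFP+ pools below every GFP- pool), with 20.4% of its exon bases shared with another annotated gene, and was not called with ERCC size factors. Hoxa10, Hoxc10 and Hoxd9 were at lower medians without passing the threshold (adjusted p of 0.0339, 0.0267 and 0.0267). The left-out libraries changed the calls to 0 higher and 1 lower.

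The 12 largest rises among well-covered genes spanned log2 fold changes of 3.57 to 6.38. Genes count as well covered with 10 counts in at least 3 of every 4 pools of the higher group, and predicted genes were not considered. Unc45b, a chaperone of striated muscle myosin, was at 0.210, 5.67 and 108.5 CPM in GFP+ MC and at 0, 0 and 3.87 CPM in GFP- MC, and was higher by 6.38 ± 0.95 (10 of 17 GFP+ pools above every GFP- pool). Slitrk4, a synaptic adhesion protein, was at a median of 17.1 against 0 CPM, and higher by 5.98 ± 0.58 without overlap. Others were the sodium channel gene Scn7a (5.18 ± 0.72), the choline transporter gene Slc5a7 (4.85 ± 0.62), the cadherin gene Cdh9 (4.16 ± 0.53), the contactin gene Cntn4 (3.57 ± 0.52), the channel-interacting protein gene Kcnip4 (3.83 ± 0.70) and Syt1. No GFP- pool reached 10 counts of Unc45b, Slitrk4, Scn7a, Klhl30 or Slc5a7, so the sizes of these folds rest on few counts. Also among the 12 were Klhl30 (4.86 ± 0.63), the epidermal factor Grhl3 (4.16 ± 0.63) and Pi15 (3.62 ± 0.50).

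Of the 12 largest falls, again among well-covered genes, 6 were Pax1, Tbx1, Foxf2, Wnt2, Aldh1a3 and Alx4, described with their lists. The other 6 were Saa1 (-4.84 ± 0.71), an acute phase protein gene with a close paralog, Fam19a1 (-4.50 ± 0.66), the prostaglandin receptor gene Ptgfr (-3.74 ± 0.72), the homeodomain gene Gsc (-3.12 ± 0.76), Kctd12 (-3.02 ± 0.37), with 62.8% of its exon bases shared with another annotated gene, and Itgbl1 (-2.99 ± 0.65). Kctd12 was at 0.282, 6.68 and 18.01 CPM in GFP+ MC and at 24.3, 58.8 and 164.97 CPM in GFP- MC, without overlap.

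By p-value, Rgs5, Efhd2, Fn1, Asb4 and Fbn1 led the higher genes, and Pax1, Ptma, Tbx1, Crabp1 and Set the lower ones. Efhd2, a calcium-binding adaptor, was at 113.6, 260 and 430 CPM against 32.5, 42.8 and 71.02 CPM and higher by 2.43 ± 0.15 (adjusted p = 5.88e-14). Asb4, a ubiquitin ligase subunit known from embryonic vessels, was at 692, 972 and 1449 CPM against 230, 335 and 510 CPM and higher by 1.59 ± 0.11 (adjusted p = 4.43e-12). Both were without overlap. Ptma and Set encode chromatin-linked proteins and have processed copies in the genome that complicate read placement. They were lower by small and even amounts, at log2 fold changes of -0.58 ± 0.04 and -0.69 ± 0.06, with each GFP+ pool below each GFP- pool.

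Pools of one group also differed among themselves. Among genes with a mean over 20 CPM, the variance of log2 CPM + 1 between pools ranked Aldh1a2 highest of 7521 genes in GFP+ MC, with 4 of 17 pools under 10 counts and a maximum of 415 CPM. Tacc1, a centrosome protein, ranged from 13.4 to 947 CPM there, and the Wnt inhibitor Dkk1 from 0 to 95.4 CPM. Further down the 10 most variable were Hoxd10, a posterior Hox gene (0 to 98.3 CPM), and the mitotic genes Kif23 (0.563 to 69.7 CPM) and Aurka (1.11 to 110.1 CPM). In GFP- MC, of 7443 genes, the 10 most variable included Actc1 (7.18 to 1112 CPM) and the cytokine gene Il33 (0 to 60.4 CPM). Aldh1a3 (0 to 86.2 CPM) and Kitl (0 to 58.3 CPM) were among them as well. These rankings describe the pools, with no test.

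The same reporter split the SNS cells of E11.5, which allows a test of whether its effect differs between the cell types. In one fit of the 4 E11.5 populations (17, 14, 15 and 16 pools), 17309 genes were tested and the interaction passed an adjusted p of 0.01 in 1795 (10.4%), with the log2 fold change in MC minus that in SNS cells above 0 in 976 and below 0 in 819. This sign says nothing of which effect is larger in size. Of the 1889 genes called between MC groups in this fit, 946 passed the interaction test. Acta2, Col1a1, Fbn2, Foxc2, Rspo3, Ror2, Thbs1 and Ntrk2 were not called between MC groups in this fit. Gata3 had a log2 fold change of 2.10 in SNS cells, and the difference from MC was -0.20 (adjusted p = 0.750). Isl1 (3.03 in SNS cells, difference 0.14, adjusted p = 0.932) and Hand2 (2.16, difference -0.36, adjusted p = 0.797) likewise had no detectable difference of effect. Asb4 (1.62, difference -0.03, adjusted p = 0.962) was of the same kind.

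Other genes did differ. Gata6 went the opposite way in SNS cells, at a median of 0.231 CPM in GFP+ and 9.05 CPM in GFP- SNS pools, with a difference of 7.59 (adjusted p = 5.21e-20). No GFP+ SNS pool reached 10 counts, so this size rests on few counts. Rgs5 had 0.07 in SNS cells and a difference of 2.41 (adjusted p = 9.27e-05), with medians of 11.7 and 15.8 CPM in GFP+ and GFP- SNS pools. Acta2 was at medians of 15.8 and 18.7 CPM there, and 2 of 16 GFP- SNS pools held 788 and 923 CPM while the others were at 33.97 CPM or less, so no difference of effect is drawn for it. Nor is one drawn for Myocd, whose fitted log2 fold change in SNS cells (-1.69) ran against its medians there, 0.941 CPM in GFP+ and 0.552 CPM in GFP- pools. For Heyl the difference was 2.36 (adjusted p = 6.77e-09), with medians of 62.9 and 77.05 CPM in SNS cells. Among the genes lower in GFP+ MC, Tbx1 (-4.60), Foxf2 (-6.17), Ptch1 (-1.50) and Ccnd2 (-0.81) passed the interaction test, whereas Wnt5a (-0.96, adjusted p = 0.126), Foxd1 (0.49, adjusted p = 0.624) and Crabp1 (-0.92, adjusted p = 0.0472) did not. Tbx1 was at medians of 0.190 and 0.230 CPM in GFP+ and GFP- SNS pools and Foxf2 at 0 in both. No GFP+ SNS pool reached 10 counts of either, so their sizes rest on few counts too. For these genes the test sets the MC change against a cell type that hardly expresses them.

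**Figure D5:**
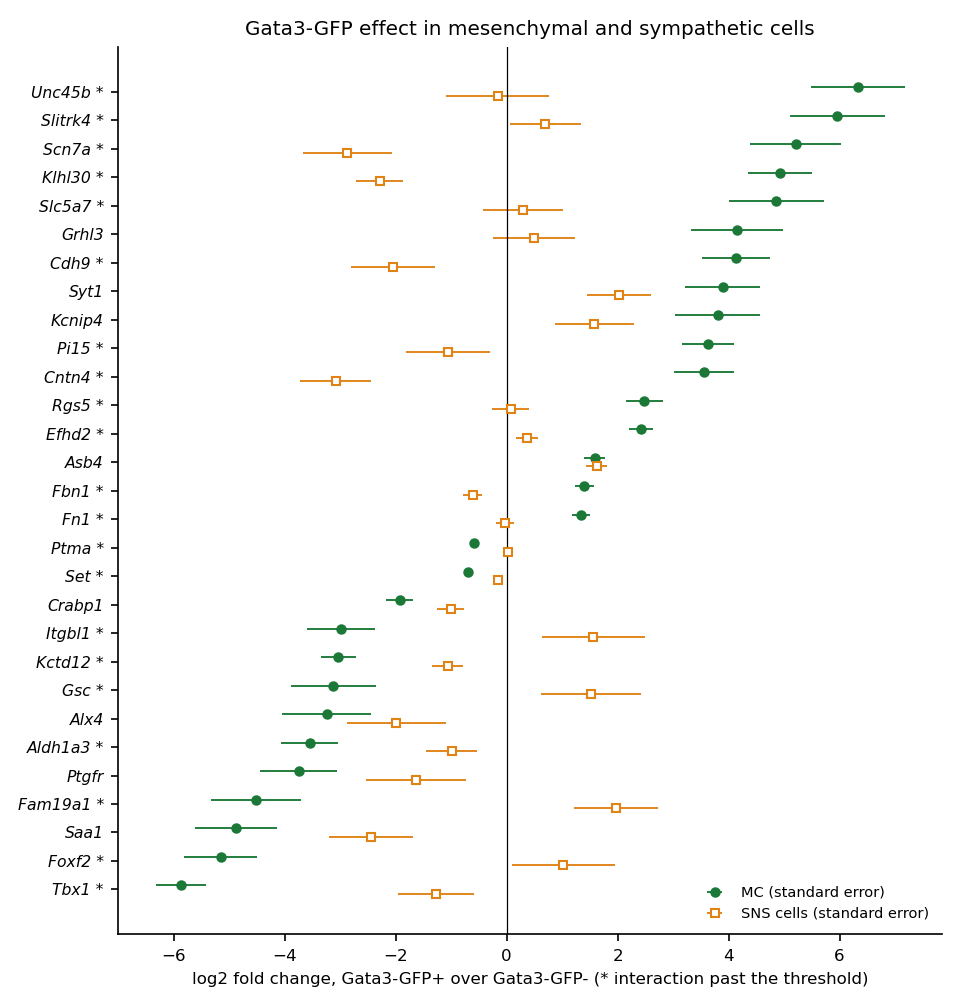
Log2 fold change of Gata3-GFP+ over Gata3-GFP- (x axis), with standard errors, in MC (filled circles) and SNS cells (open squares) from one fit of the 4 E11.5 populations, for genes from those with the largest changes or smallest p in MC. Fitted SNS values of genes hardly expressed there, such as Unc45b and Foxf2, rest on few counts. Stars mark the 21 genes whose interaction passed an adjusted p of 0.01, among them Unc45b, Rgs5 and Tbx1 but not Asb4 or Crabp1.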

How the data were processed

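RNA of pools of 20 sorted cells was measured by single-end Smart-seq2 sequencing. The authors deposited raw counts per Ensembl gene, ERCC RNA and HTSeq summary row. The paper's methods name STAR, Ensembl 81 and HTSeq, while the submitters' processing notes list GSNAP and HTSeq 0.5.3p3. The strand setting is not given. Columns were grouped by population label. Among libraries labelled MC, 6 were left out for Ngfr above Pdgfrb and 3 for low depth.

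edgeR 4.0.16 in R 4.3.3 gave robust quasi-likelihood tests with TMM scaling and Benjamini-Hochberg adjustment, for genes reaching 10 counts in 5 or more pools, and standard errors came from the F statistics. Levels are plain CPM. Single values were tested by permutation (two-sided, 100000 resamples). Alternatives used DESeq2 1.42.0, scran 1.30.0, ERCC size factors, scanpy 1.11.5, other filters and other pools. Positions are from GENCODE M21 (GRCm38). The steps were tested on simulated data. Besides the list genes, the 12 largest changes and 5 smallest p per direction and the 10 most variable genes per group are named, except genes not reported here. The members and lists were chosen with earlier results of these data known.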

Additional observations from a re-analysis of the deposited data

Results flagged for a closer look

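A difference between groups marked the comparison of MC with SNS cells, in which 1795 genes had a different Gata3-GFP effect by the interaction test. Among the genes named for size or p in MC, the log2 fold change in MC minus that in SNS cells was 6.49 in Unc45b, 5.26 in Slitrk4, 8.08 in Scn7a and 7.22 in Klhl30. The same difference was 4.57 in Slc5a7, 6.18 in Cdh9, 4.69 in Pi15 and 6.63 in Cntn4. It was 2.41 in Rgs5, 2.06 in Efhd2, 1.37 in Fn1 and 2.01 in Fbn1. On the other side, the difference was -4.60 in Tbx1, -6.17 in Foxf2, -6.48 in Fam19a1, -2.57 in Aldh1a3 and -4.64 in Gsc. It was -1.97 in Kctd12, -4.56 in Itgbl1, -0.60 in Ptma and -0.54 in Set. In both SNS groups, median levels were under 1 CPM for Unc45b, Scn7a, Slc5a7, Cdh9, Pi15, Cntn4, Tbx1, Foxf2, Gsc and Itgbl1, so these differences are set by genes hardly expressed in SNS cells.

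A signal appeared in libraries outside the comparison. The 3 left-out libraries labelled Gata3-GFP- MC held 128.7, 369 and 413 CPM of Gata3, above the 71.5 CPM of the highest GFP+ MC pool used. GFP+ SNS pools used held 116.4 to 321 CPM of Gata3. The left-out libraries labelled Gata3-GFP+ MC held 16.6, 36.8 and 84.6 CPM of it, and GFP- SNS pools used 11.8 to 98.8 CPM. Left-out libraries labelled Gata3-GFP+ SNS held 10.3 to 23.5 CPM and those labelled Gata3-GFP- SNS 44.6 to 50.5 CPM. The 3 left-out libraries labelled Gata3-GFP- MC also held 71.8, 500 and 520 CPM of Th, against at most 5.94 CPM in the GFP- MC pools used. Whether columns of MC and SNS cells were exchanged was not tested.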

How the results depend on the processing

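Including the 6 libraries left out by their markers, 354 genes were higher and 344 lower, Gata3 was at -0.66 (log2), the gene to ERCC ratio differed by 0.04 and genes detected by 510. With them Sox10 (0.91), Isl1 (-0.67), Hand2 (-0.68), Gfra1 (0.03) and Cdkn1c (-0.25) turned direction. A further 40.6% of the called genes named besides Gata3 lost their call without turning direction. ERCC size factors gave 228 lower genes. With the shallow pools, Ngfr (-0.09), Ednrb (-0.34) and the mitochondrial share (0.170) turned direction. Ngfr, at 0.56 in the main fit, is a gene of the rule for pools, so nothing is drawn from its change of sign. An adjusted p under 0.05 gave 1339 higher and 1275 lower genes, and a log2 fold change beyond 1 gave 380 and 170, by construction. The causes of the other changes were not tested.

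Outside the fit with all labelled pools, 86.5% of these called genes kept their call in each alternative run, and Gata3 stayed between 1.72 and 2.04. Without a filter on genes, 1 named gene on the higher side and 3 on the lower side lost their call. DESeq2 and scran size factors, both filters, DESeq2's Wald test, scanpy's test, the stricter Ngfr rule, the QC limits and the fit of 4 populations kept the counts of calls within 1.5 times, as did the alternatives for the interaction. No paired analysis was possible because the columns carry no pool number, so the replicate block was not run. Leaving out single pools was not run, as groups held over 5 pools. Genes that did not reach 10 counts in 5 or more pools were not compared in the main test.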
